A study of Mus musculus with 4 samples.

Results

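Conventional type 1 dendritic cells (cDC1) of the mouse liver were examined as the cells of 4 single-cell RNA sequencing libraries that met a rule on raw UMI counts, where a UMI (unique molecular identifier) stands for 1 counted transcript molecule. A barcode was kept as a cell when it had at least 500 genes and at most 20% mitochondrial UMIs. A kept cell was a cDC1 when it held at least 2 UMIs of Xcr1 and Clec9a together, at least 1 of Wdfy4 and Flt3 together, at most 1 of Cd209a and at most 5 of C1qa, C1qb and C1qc together. It also had to hold 0 UMIs of Cd3d, Cd3e, Cd3g, Cd79a, Cd79b and Siglech, and cells with at least 2 UMIs of Fscn1 and at least 1 of Ccr7, which mark mature dendritic cells, were left out. The rule found 1117 of 31290 kept cells. The 16 genes of the rule are therefore described and no test of them is reported. Those that passed the gene filter stayed in the fits and in the totals of genes called.

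The mice were male C57BL/6J animals bought at 5 weeks of age. The NCD group received a normal chow diet and gave 1 library. The HFD group received a high-fat diet and gave 2 libraries. The JQF group received Jiangtang Qingre Formula (JQF), a mixture of herbal preparations, by mouth for 8 weeks after 14 weeks of high-fat diet, and gave 1 library. Over those 8 weeks the NCD and HFD mice were given distilled water, and the HFD mice had the same 14 weeks of diet before. Nothing in the labels says that a library pooled animals, so each was read as 1 liver. The study asked how liver immune cells differed between the diets and after the formula. NCD and JQF each had 1 library, so diet or formula and library cannot be told apart, and replicate error could be read from the HFD pair only.

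cDC1 are the dendritic cells specialised in cross-presentation, in which antigen taken up from dying or infected cells is loaded on MHC class I for CD8 T cells. They develop under the transcription factors Irf8, Batf3 and Id2, depend on the cytokine Flt3 ligand, and sense dead cells through Clec9a. Their receptor Xcr1 binds Xcl1, which NK cells and T cells secrete, and they are a main source of IL-12. The liver's other conventional subset, cDC2, expresses Sirpa, Itgam and C-type lectins such as Cd209a and presents mainly on MHC class II.

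The kept cells numbered 5975 in NCD, 6516 and 10259 in HFD replicates 1 and 2, and 8540 in JQF, and the UMI totals of the libraries lay between 67615639 and 108062769. The cDC1 numbered 77, 354, 369 and 317 over these libraries, with 2667769, 8117465, 7969980 and 7783603 UMIs in sum. No cDC1 barcode was shared between any pair of libraries. The median cDC1 held 34773 UMIs in NCD against 22603.5, 21305 and 23564 in HFD replicates 1 and 2 and JQF, so NCD had the fewest cDC1 and the most UMIs in each. Levels are given below as CPM, a gene's UMIs per 1000000 UMIs summed over the cDC1 of a library.

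The label was checked against the cells. Xcr1 and Clec9a were both present in 70.1% of the NCD cDC1, 79.1% and 81.3% of the HFD cDC1 and 82.3% of the JQF cDC1. Xcr1 stood at 202, 285, 296 and 227 CPM in NCD, HFD replicates 1 and 2 and JQF, Clec9a at 398, 361, 431 and 266 CPM and Wdfy4, which cross-presentation of dead cell antigen requires, at 1782, 1568, 1547 and 1439 CPM, levels that the rule itself set in part. In T cells, which should lack it, Xcr1 was found in 0.362% of NCD cells and 1.11% of those of HFD replicate 1, at median depths of 10902 and 7314 UMIs, and in 2.02% of JQF T cells. Transcripts of Irf8 were found in 96.1% of NCD cDC1 and 97.7% of the cDC1 of HFD replicate 1, whereas 47.6% and 40.7% of cDC2 (median 24137.5 and 14896 UMIs) and 28.0% and 19.4% of T cells had one in those libraries. Irf8 is not particular to cDC1, since it was found in 74.3% and 73.2% of their B cells (median 8777 and 5858 UMIs). A portion of the NCD cells stood apart. Of the 77 NCD cells, 21 (27.3%) carried at least 5 UMIs of the sinusoidal endothelial genes Stab2, Clec4g, Kdr and Oit3, with a median of 164. The corresponding numbers were 2 of 354 (0.565%) and 12 of 369 (3.25%) in HFD and 4 of 317 (1.26%) in JQF.

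These 21 NCD cells met the rule mostly through Clec9a. Xcr1 was present in 2 of them, 17 had no UMI of the MHC class II gene H2-Aa, and the median of Xcr1 and Clec9a together was 3 UMIs. Irf8 stood at 269 CPM and Naaa at 49.0 CPM in the 21 cells, against 1583 and 658 CPM in the other 56. Stab2 was at 2647 CPM in the 21 cells and 3070 CPM in the NCD endothelial cells. Cd74 was at 828 CPM in the 21 cells and 9904 CPM in the 56. In sum the 21 cells were thus nearer to endothelial cells than to cDC1 by these markers. They are counted under all cDC1 below only because they met the rule. Among those 56 cells Xcr1 was present in 52 (92.9%), every cell had Wdfy4, and the median of Xcr1 and Clec9a was 26.5 UMIs. Clec9a itself was found in 41.9% of the 3688 NCD cells assigned to endothelium, at 52.0 CPM, while Xcr1 was found in 0.136% of them. Cells at the edge of the rule showed the same split, since the 10 NCD cells with exactly 2 UMIs of Xcr1 and Clec9a had Irf8 at 156 CPM and the 55 with 6 or more had 1523 CPM, whereas the 16 just outside, with 1 UMI, had 453 CPM. In HFD replicate 1 the values were 889 CPM in 38 cells with 2 UMIs, 1587 CPM in 258 cells with 6 or more and 617 CPM in 77 cells just outside. The diet comparison is therefore given over all cDC1 and again with the cells of at least 5 endothelial UMIs left out, a choice made after the data had been seen. Gene values of the contrast with cDC2 and of JQF with HFD are over all cells, with the counts or ranges of the other fit beside them.

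**Figure D1:**
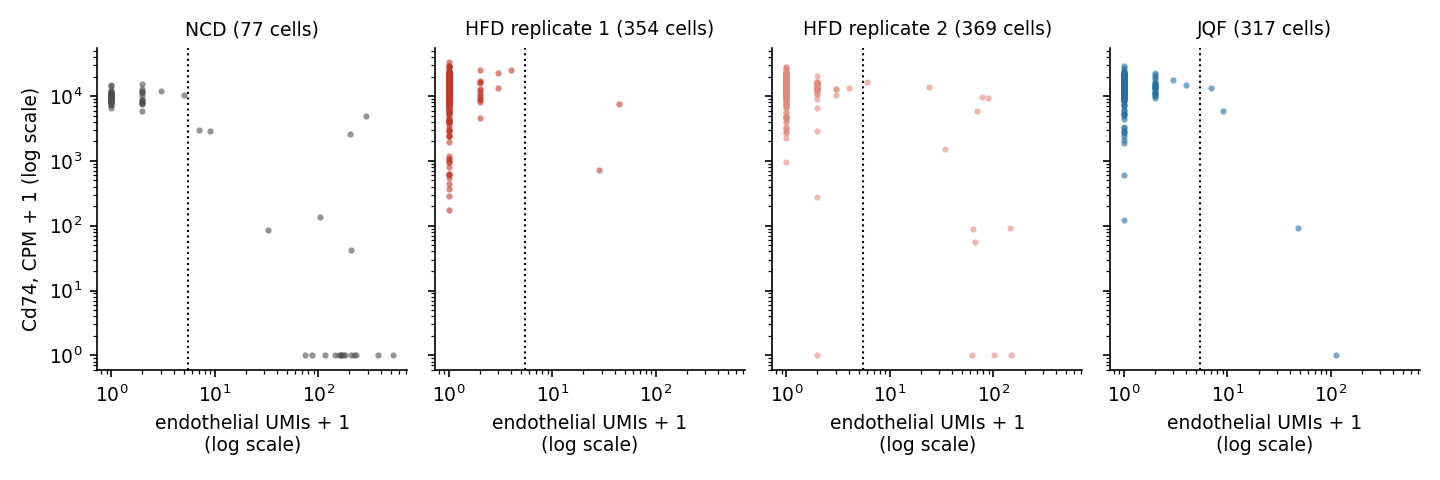
Each point is 1 cDC1, with 1 panel per library; the x axis gives the summed UMIs of 4 endothelial genes plus 1 (log scale), the y axis the Cd74 level in CPM plus 1 (log scale), and the dotted line the minimum of 5 endothelial UMIs. In NCD 21 of 77 cells lie to the right of the line, mostly with low Cd74, against 2 of 354 and 12 of 369 in HFD and 4 of 317 in JQF.

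cDC1 made up a larger share of the kept cells in each HFD library and in JQF than in NCD. They were 1.29% of kept cells in NCD (95% Clopper-Pearson interval 1.02 to 1.61), 5.43% (4.89 to 6.01) and 3.60% (3.24 to 3.98) in HFD, and 3.71% (3.32 to 4.13) in JQF. These intervals cover counting error only. The HFD mean was 4.51% ± 1.30 (SD, n = 2), and the NCD interval did not reach either HFD value. The test across libraries nevertheless missed the threshold, with a log2 difference between HFD and NCD of 1.81 (SE 0.62, adjusted p = 0.0971, edgeR quasi-likelihood test with Benjamini-Hochberg adjustment over 12 cell classes). With the endothelial-bearing cells left out the difference was 2.24 (SE 0.65, adjusted p = 0.0814). JQF and HFD differed by -0.28 on the log2 scale (SE 0.57, adjusted p = 0.931), and the JQF share lay between the 2 HFD shares. The exclusions of the rule fell unevenly on the libraries. The C1q limit alone left out 24, 55, 174 and 14 cells in NCD, HFD replicates 1 and 2 and JQF, and the Cd3 limit alone 4, 31, 22 and 86. Their part in the order of the shares was not tested.

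The size of the difference in share moved with the denominator. NCD held 3688 endothelial cells, whereas HFD held 101 and 1110 and JQF 573. As a share of immune cells, cDC1 were 4.16% (3.30 to 5.17) in NCD, 6.96% (6.28 to 7.70) and 4.9% (4.42 to 5.41) in HFD, and 4.74% (4.24 to 5.28) in JQF, and the HFD against NCD difference was 0.51 (adjusted p = 0.55). Leaving out the endothelial-bearing cells put NCD at 3.07% (2.33 to 3.97), the HFD replicates at 6.93% and 4.75% and JQF at 4.68%, with a difference of 0.92 (adjusted p = 0.381). Within the dendritic cells the NCD share was 46.4%, the HFD shares 51.1% and 40.5% and the JQF share 40.6%, a log2 difference of -0.019 between HFD and NCD. Its sign turned when those cells were left out (0.17), NCD and JQF then both being at 40.3% and the HFD replicates at 51.0% and 39.9%. By these rules cDC1 outnumbered cDC2 in every library, by 1.83, 2.06, 1.56 and 1.41 cDC1 per cDC2 in NCD, HFD replicates 1 and 2 and JQF (1.56, 2.06, 1.53 and 1.39 without those cells). The excess depends on the cutoffs. cDC2 were kept cells with at least 2 UMIs of Cd209a and fewer than 2 of Xcr1 and Clec9a together. They also met the limits of the cDC1 rule on C1q, Cd3, Cd79 and Siglech genes and on mature cells. At least 4 UMIs of Cd209a in place of 2 gave 33, 128, 179 and 172 cDC2 in place of 42, 172, 237 and 225. The relation of cDC1 to the other dendritic cells thus varied less between libraries than their share of all cells.

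**Figure D2:**
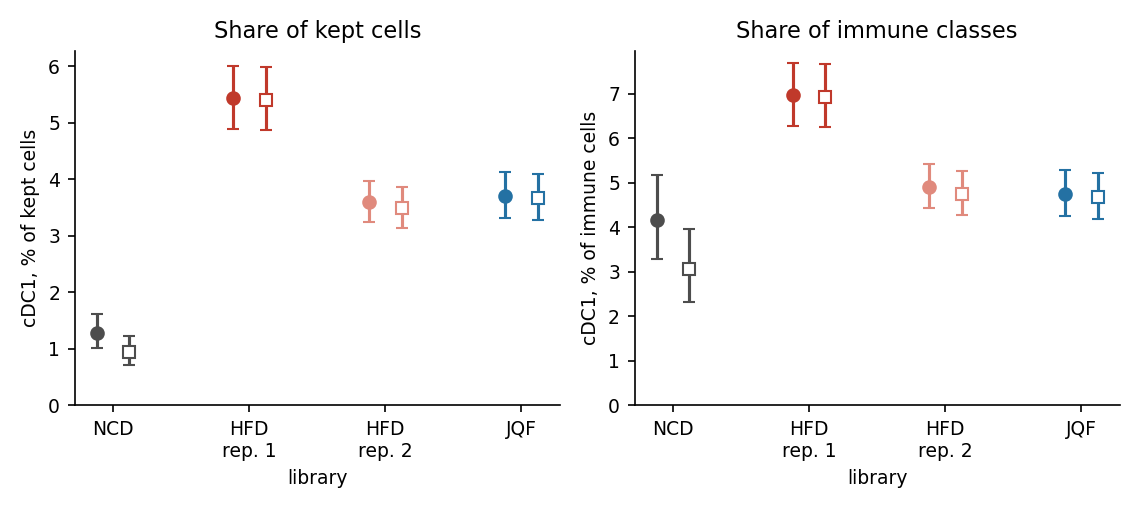
The left panel gives cDC1 as a percentage of kept cells per library (filled circles, all cDC1; open squares, cells with at least 5 endothelial UMIs left out), the right panel with the same markers as a percentage of immune cells, and bars are 95% Clopper-Pearson intervals. NCD lies lowest on the left at 1.29%, whereas on the right its 4.16% over all cDC1 is near the 4.74% of JQF and the 4.9% of HFD replicate 2, and its 3.07% without the endothelial-bearing cells lies below all others.

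The gene programme of the cDC1 was first set against the 676 cDC2 of the same livers (42, 172, 237 and 225 cells in NCD, HFD replicates 1 and 2 and JQF). As given above, these held at least 2 UMIs of Cd209a and fewer than 2 of Xcr1 and Clec9a together. Both classes were defined on UMIs of the same cells, so the contrast describes what the rule gathered and is no independent evidence of identity. The totals of all genes called include genes of the rules. With library as a block, 1551 of 12933 genes (12%) were higher and 1626 (12.6%) lower in cDC1 at an adjusted p below 0.05, 24.6% in all, while 37% had an unadjusted p below 0.05. Of 29 identity genes tested that the rule did not use, 25 were higher and 2 lower in cDC1. The median log2 difference of the 29 was 3.45, against 0.024 over all genes. In the fit without the endothelial-bearing cells 24 were higher and 1 lower.

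Irf8, the factor that cDC1 need to develop, stood at 1282, 1496, 1461 and 1241 CPM in the cDC1 of NCD, HFD replicates 1 and 2 and JQF, and at 108, 59.0, 94.6 and 77.3 CPM in their cDC2. The groups did not overlap, and the log2 difference was 4.08 (SE 0.17, adjusted p = 7.79e-06). Cadm1, an adhesion molecule used as a cDC1 marker, stood at 1676, 676, 970 and 682 CPM against 139, 93.4, 101 and 94.8 CPM (log2 difference 3.16). Naaa, a lysosomal amidase, stood at 518, 910, 843 and 654 CPM against at most 101 CPM in cDC2, again a log2 difference of 3.16. The integrin chain Itgae was between 81.7 and 122 CPM in cDC1 and between 2.91 and 14.9 CPM in cDC2. The other factors of the programme were less exclusive, with log2 differences of 1.54 for Batf3 and 1.39 for Id2. Bcl6, also linked to cDC1 development, was lower in cDC1 by 0.32 on the log2 scale (adjusted p = 0.0277), a call that was lost with the endothelial-bearing cells left out (-0.26, adjusted p = 0.069).

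Among genes with the largest differences, the cytokine subunit Il12b stood at 367, 168, 319 and 205 CPM in cDC1 and between 0 and 2.38 CPM in cDC2 (log2 difference 7.35, SE 0.29, adjusted p = 5.62e-06). The signalling adaptor gene Gcsam was at 66.0, 101, 102 and 70.4 CPM in cDC1 and at no more than 0.373 CPM in cDC2. The endosomal RNA sensor Tlr3 differed by 4.61, the parasite profilin sensor Tlr12 by 4.96, and the sorting nexin Snx22 by 4.9. The chemokine receptors Cxcr3 (4.79) and Ccr9 (3.41) were higher in cDC1, while 11 of the 18 chemokine and receptor genes were lower (10 in the fit without the endothelial-bearing cells), among them Ccl9 (-4.18), Ccr1 (-4.03), Cx3cr1 (-3.39) and Ccl4 (-1.31). Of all genes 12.6% were lower (14.4% in that fit). Among genes with at least 50 CPM in cDC2, no overlap between the subsets and at most 50% of the cDC2 UMIs in 3 cells, the largest differences toward cDC2 were in the lectins Clec10a (-7.08) and Mgl2 (-6.65), in Klra17 (-4.81), in Sirpb1a (-4.80), whose reads can be shared with near-identical copies, and in the integrin Itgam (-4.73). Cybb, the NADPH oxidase subunit, was at 29.1 to 59.2 CPM in cDC1 and 509 to 835 CPM in cDC2 (-3.83).

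Presentation genes were divided between the subsets. The list counts that follow stand beside 12% of all genes higher and 12.6% lower in cDC1 (14% and 14.4% in the other fit). The lower class I genes and the higher survival genes are near those shares. Of 26 genes of cross-presentation and MHC class I, 10 were higher and 3 lower in cDC1, and 11 and 4 with the endothelial-bearing cells left out. The peptide transporter gene Tap1 stood at 172, 187, 180 and 144 CPM against 96.3, 123, 117 and 80.5 CPM in cDC2 (0.75, SE 0.09, adjusted p = 0.000716), and the immunoproteasome subunit Psmb9 differed by 1.33. Of 15 class II genes none was higher and 8 were lower (9 in the other fit), with small differences for H2-Aa (-0.18) and Cd74 (-0.18) and a larger one for the protease Ctss (-1.38). Of 28 interferon-stimulated genes 19 were lower in cDC1 and 2 higher, Irf7 (0.54) and Iigp1 (1.17), and the median log2 difference was -1.12. In the other fit 17 were lower and Irf7 alone higher, the call on Iigp1 being lost (0.75, adjusted p = 0.338). The cytosolic RNA sensors Ifih1 and Ddx58 differed by -1.57 and -2.65. Of 23 growth factor receptor and survival genes 3 were higher and 10 lower (4 and 8 in the other fit), with Kit (1.21) and Bcl2l1 (1.39) toward cDC1 and Csf1r, the receptor for a macrophage growth factor, toward cDC2 (-2.48). With the endothelial-bearing cells left out of both subsets, 1720 genes (14%) were higher and 1772 (14.4%) lower, of which 1425 and 1540 were also called over all cells. Of the genes named in this contrast, Bcl6 and Iigp1 lost their call there and the others kept their direction and call.

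**Figure D3:**
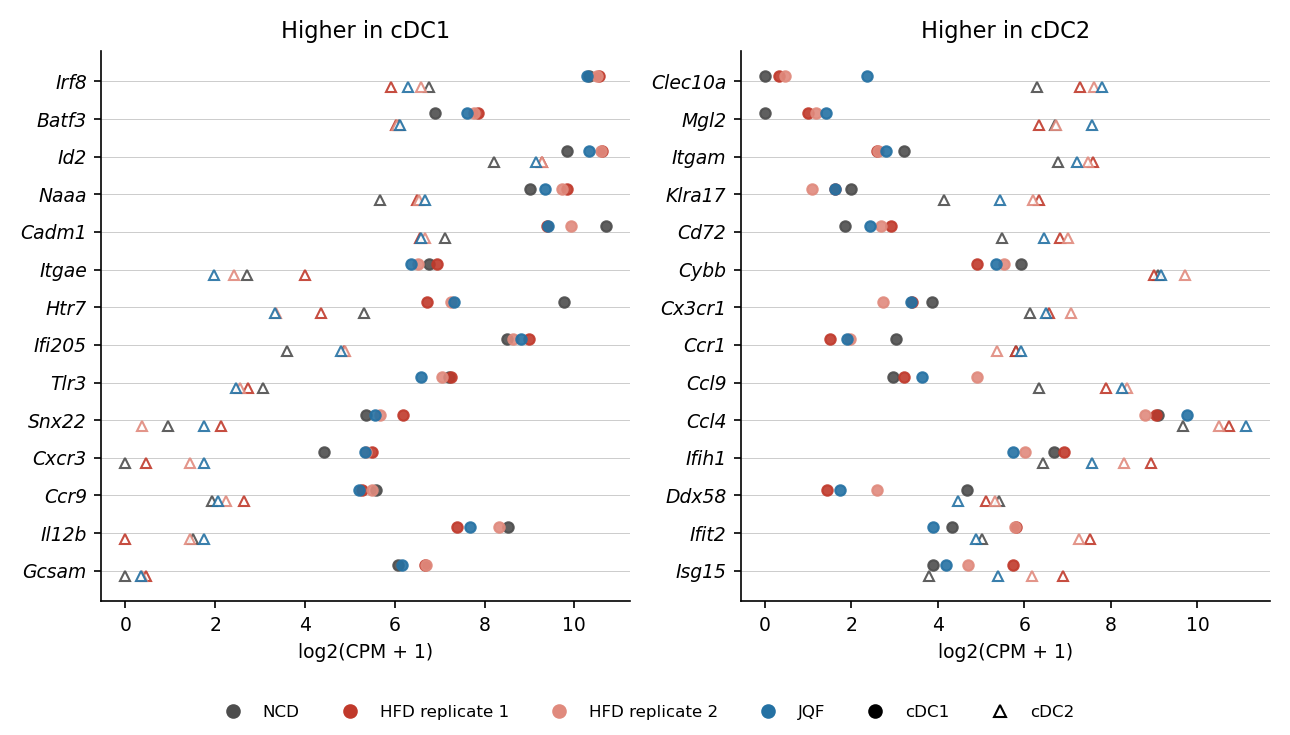
Levels are log2(CPM + 1) on the x axis for genes on the y axis, with 1 filled circle per library for cDC1 and 1 open triangle per library for cDC2; the left panel holds genes higher in cDC1 and the right panel genes higher in cDC2. Gcsam and Il12b reach no more than 0.373 and 2.38 CPM in cDC2, and Clec10a and Mgl2 no more than 4.11 and 1.67 CPM in cDC1.

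The cDC1 of mice on the high-fat diet were then compared with those of mice on chow. Compared with the NCD group, 1044 of 13224 genes (7.89%) were higher and 1115 (8.43%) lower in the HFD group, 16.3% in all. With the endothelial-bearing cells left out, 666 of 12688 genes (5.25%) were higher and 1202 (9.47%) lower, 14.7% in all and 33.1% by an unadjusted p below 0.05, and 545 of the 1044 and 661 of the 1115 genes were called in both fits. Genes of interferon response, cell division and energy metabolism were among those higher in HFD, and genes of the immediate early response and of costimulation among those lower. The fits rested on 1 residual degree of freedom, the smallest adjusted p over all cDC1 was 0.0363, and removal of predicted doublets brought the calls to 0 (smallest adjusted p = 0.0587; 4784 genes at an unadjusted p below 0.05). The single NCD library was assumed to vary as the HFD libraries did.

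Other values moved with this comparison. Ribosomal protein genes took 105829 CPM of the NCD cDC1 UMIs, 182003 and 181023 CPM in HFD and 198654 CPM in JQF, and cDC2 and the free RNA of the libraries differed in the same direction. The NCD cDC1 also held the most Hbb-bs (431 CPM, or 6.3 CPM with the endothelial-bearing cells left out, against no more than 2.13 CPM in the others). The neutrophil gene S100a9 was at 203 CPM in NCD, all of it in 3 cells, 67.9 and 29.5 CPM in HFD and 3.60 CPM in JQF. Of the 1115 lower genes, 699 (62.7%) had a higher CPM in the NCD endothelial cells than in the cDC1, against 247 of the 1044 higher genes (23.7%). The same share over all genes tested is not given here, so neither value can be set against it. Markers of other cell types also differed. The 4 monocyte markers summed to 175 CPM in NCD, 343 CPM in each HFD library and 258 CPM in JQF, with Ccr2 (168, 317, 309 and 247 CPM) and Ly6c2 (3.37, 16.6, 16.1 and 9.89 CPM) called higher in HFD, and Ly6c2 and F13a1 without the endothelial-bearing cells, where F13a1 had no UMI in NCD. The 4 NK markers summed to 2.25, 17.5, 8.66 and 7.45 CPM, with 2 of them at 0 in NCD, and the 8 macrophage markers to 19.1, 22.7, 82.6 and 17.3 CPM, with none called in either list. The mature dendritic cell markers summed to 107, 218, 297 and 133 CPM, with Ccl22 called in both fits. The hepatocyte genes Alb (55.1, 10.3, 18.2 and 41.1 CPM) and Apoa1 (11.6, 2.34, 2.76 and 8.22 CPM) and the hemoglobin genes Hbb-bs (-8.48), Hba-a1 (-8.11) and Hba-a2 were called lower and the B cell gene Ighm (85.5, 160, 148 and 145 CPM) higher in HFD over all cDC1 alone, and S100a9 was called lower without the endothelial-bearing cells. The part of these markers, of ribosomal protein content and of depth in the results was not tested.

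Interferon-stimulated genes were called in both directions, more often higher in HFD. Of 28 tested, 8 rose and 3 fell (16.3% of all genes called), and with the endothelial-bearing cells left out 12 rose and 3 fell (14.7% of all genes called), with a median log2 difference of 1.06 and 1.05, against 0.084 and 0.108 over all genes. Ifi27l2a, an interferon-inducible gene outside that list, stood at 10.5 CPM in NCD, 192 and 169 CPM in HFD (180 ± 16.6, SD, n = 2) and 92.4 CPM in JQF. Its rise was the largest among called genes with at least 50 CPM in HFD, no overlap between groups and at most 50% of the HFD UMIs in 3 cells. It rose by 4.18 (SE 0.22, adjusted p = 0.0376), or 3.68 without the endothelial-bearing cells (adjusted p = 0.00732). Irf7, the factor that amplifies the response, stood at 19.9, 84.0, 57.2 and 55.1 CPM in NCD, HFD replicates 1 and 2 and JQF (1.90 and 1.48 in the fits with and without those cells). The tetherin gene Bst2 stood at 83.2, 200, 161 and 148 CPM (1.19, adjusted p = 0.0393; 1.69, adjusted p = 0.0167). Ifit2 was at 19.1 CPM in NCD, 54.7 and 53.8 CPM in HFD and 13.9 CPM in JQF (1.58 and 2.27), so JQF lay below NCD for this gene. The RNA-sensing synthetase gene Oas3 had 2 UMIs in NCD, or 0.75 CPM, and 6.16, 7.15 and 3.98 CPM in the others, an HFD to NCD ratio of 8.87 (95% counting interval 2.4 to 74.2; adjusted p = 0.0436, and 0.0388 without the endothelial-bearing cells).

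Other members of the same list fell. Irf1, a factor downstream of interferon gamma, stood at 357 CPM in NCD, 93.1 and 77.5 CPM in HFD and 101 CPM in JQF (-1.99; -1.36 without the endothelial-bearing cells). The inflammasome-linked GTPase Gbp5 was at 41.2, 8.01, 5.65 and 13.5 CPM (-2.52; -2.89), with 77.3% of its NCD UMIs in 3 cells. A further fit left out cells of at least 2 cycle marker UMIs, counted at full depth, and kept endothelial-bearing cells below that count. In it the calls on Gbp5 (-1.43, adjusted p = 0.184), Ifit2 (0.94, adjusted p = 0.107), Bst2 (0.94, adjusted p = 0.0609), Isg20 (adjusted p = 0.0607) and Oas3 (adjusted p = 0.0566) were lost, while those on Ifi27l2a, Irf7 and Irf1 were kept. Iigp1, a GTPase of the same response, was at 330, 7.27, 19.4 and 15.3 CPM (-4.54), and at 26.3 CPM in NCD without the endothelial-bearing cells (-1.91). The Irf1 level without the endothelial-bearing cells was 200 CPM in NCD, and the NCD endothelial cells held Irf1 at 841 CPM and Iigp1 at 1825 CPM. Oasl2, another synthetase-like gene, shows the reach of that choice, since it stood at 15 CPM over all NCD cDC1 and at 0.973 CPM without those cells, with log2 differences of -0.49 (adjusted p = 0.237) and 3.10 (adjusted p = 0.0291).

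The promoters of the interferon-stimulated genes were read from RefSeq sequence, to describe the list's sequence. The letters GAAA, any 2 bases and GAAA, the core of the element bound by interferon-activated factors, were searched on both strands of the 250 bases before the annotated start. They were present in 13 of the 23 list genes with a promoter entry (56.5%), against 3.46% of 27025 genes. Of the list genes called higher in both fits, Oas3 and Bst2 held the motif, and both are shown because they carry it beside a change in these cells. Ifit2, Irf7, Isg20 and Oasl1 rose without a match in this window, and Gbp5, which fell, had one. Sequences are from GRCm38.p6, 5′ to 3′ on the strand of the gene, with capitals marking the motif. Oas3 lies on chromosome 5 at chr5:120777660-120777909 (minus strand, 1 match) and Bst2 on chromosome 8 at chr8:71537473-71537722 (minus strand, 2 matches that overlap).
Oas3: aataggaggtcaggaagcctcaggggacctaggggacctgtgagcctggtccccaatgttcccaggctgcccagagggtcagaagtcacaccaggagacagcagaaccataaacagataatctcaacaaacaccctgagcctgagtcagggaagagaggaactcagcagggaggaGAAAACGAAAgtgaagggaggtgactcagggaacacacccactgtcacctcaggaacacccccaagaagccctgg
Bst2: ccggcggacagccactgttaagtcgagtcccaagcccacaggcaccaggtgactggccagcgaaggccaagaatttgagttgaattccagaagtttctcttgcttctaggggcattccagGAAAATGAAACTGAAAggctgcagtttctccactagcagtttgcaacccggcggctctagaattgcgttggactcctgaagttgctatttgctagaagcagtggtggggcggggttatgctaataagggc
A match describes the letters alone and shows no binding.

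Genes of cell division were higher in HFD. Of 27 tested, 19 rose and none fell over all cDC1 (16.3% of all genes called), and 15 rose and none fell with the endothelial-bearing cells left out (14.7% of all genes called), with medians of 1.55 and 1.04. Ube2c, which drives mitotic exit, stood at 16.1 CPM in NCD, 103 and 89.1 CPM in HFD (96.1 ± 9.92, SD, n = 2) and 139 CPM in JQF, and rose by 2.65 (SE 0.20, adjusted p = 0.0376) or 2.09 without those cells. The mitotic cyclin Ccnb2 was at 3.75, 45.0, 30.4 and 48.0 CPM (3.39 and 2.83). The chromatin protein Hmgb2 was at 264, 1063, 830 and 1115 CPM (1.92 and 1.44). NCD was lowest for each of the 3, and JQF was above both HFD libraries. In NCD 3 cells held 80% of the Ccnb2 UMIs and 53.5% of those of Ube2c. With the cells in cycle left out the Ube2c difference was 0.86 (adjusted p = 0.686), and Ube2c is itself a marker used for that cut. Calls on Cdk1, Pclaf, Mcm6 and Tyms were lost there too, while those on Hmgb2 and Stmn1 were kept.

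The share of cDC1 in cycle was read after every cell was thinned to 3000 UMIs, as cells with at least 2 UMIs of 8 cycle markers. It was 9 of 77 NCD cells (11.7%, 95% interval 5.49 to 21), 70 of 345 (20.3%, 16.2 to 24.9) and 63 of 364 (17.3%, 13.6 to 21.6) in HFD, and 64 of 310 (20.6%, 16.3 to 25.6) in JQF. The intervals overlapped and no test was made. Without thinning the shares were 37.7%, 32.5%, 29.8% and 37.2%, so that NCD was no longer lowest, and its cells were the deepest. The thinned cDC2 shares were 9.76%, 11.2%, 13.2% and 10.0%. With the endothelial-bearing cells left out the cDC1 shares were 14.3%, 20.1%, 17.9% and 20.9%. In the contrast with cDC2 10 of 27 division genes were higher in cDC1 and none lower (13 and none without the endothelial-bearing cells), for example Cdk1 (0.99, adjusted p = 0.0205). Of all genes 12% were higher and 12.6% lower in that contrast (14% and 14.4% without those cells).

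**Figure D4:**
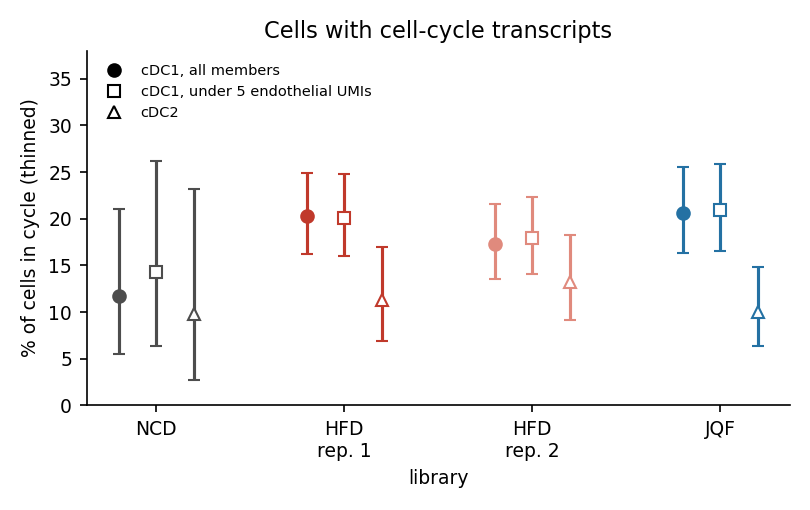
The y axis gives the percentage of cells in cycle after thinning to 3000 UMIs for each library on the x axis, with separate markers for all cDC1, cDC1 without the endothelial-bearing cells and cDC2, and bars are 95% Clopper-Pearson intervals. The NCD intervals are the widest and overlap those of the other libraries.

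Of 31 genes of glycolysis and oxidative phosphorylation, 14 rose and none fell over all cDC1, while 8 rose and 2 fell with the endothelial-bearing cells left out, beside 16.3% and 14.7% of all genes called. The glycolytic enzyme gene Eno1 stood at 9.37, 72.4, 67.1 and 48.0 CPM in NCD, HFD replicates 1 and 2 and JQF and rose by 2.97 and 3.04 in the fits with and without those cells. Gapdh was at 326, 792, 743 and 645 CPM (1.31 and 0.90), and the respiratory chain subunit Cox6c at 225, 576, 532 and 475 CPM (1.38 and 1.08). In each case NCD was below all other libraries. The genes that fell without the endothelial-bearing cells were the hexokinase Hk2 (-0.75) and the hypoxia factor Hif1a (-1.32). Reads of Eno1 and Gapdh can be shared with near-identical copies. Lipid handling genes mostly missed the test, with 2 of 30 higher (Nr1h3 and Lgals3) and none lower, a share below that over all genes, and without the endothelial-bearing cells Abcg1 and Nr1h3 were higher. Nr1h3 rested on 1 UMI in NCD against 92 in HFD (ratio 15.3, 95% counting interval 2.67 to 609). Its call was lost with the cells in cycle left out (adjusted p = 0.0637).

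Genes of antigen presentation differed less once the endothelial-bearing cells were left out. The counts that follow stand beside 16.3% of all genes called over all cDC1 and 14.7% in the other fit, and the second class I count is near that share. Of 26 class I genes 7 rose and none fell over all cDC1, while without those cells Lrmp fell and 3 rose, namely H2-Q7 (0.98 and 1.13; call lost with the cells in cycle left out, adjusted p = 0.0759), the immunoproteasome subunit Psmb10 (1.03 and 0.79) and the proteasome activator Psme2. Psme2 stood at 152, 359, 312 and 261 CPM in NCD, HFD replicates 1 and 2 and JQF (1.22 and 0.83). Of 15 class II genes, 3 rose and 1, the protease gene Ctsl, fell over all cDC1, and 1 rose and none fell in the other fit. The gene that rose in both was Ifi30, a lysosomal thiol reductase that unfolds antigens, at 195, 535, 539 and 557 CPM (1.54, adjusted p = 0.0376; 1.06, adjusted p = 0.031). The invariant chain Cd74 stood at 7820, 13825, 14104 and 13926 CPM and rose by 0.91 over all cDC1, but at 9904 CPM in NCD without the endothelial-bearing cells, with a difference of 0.38 (adjusted p = 0.183). The call on Cd74 was thus lost when those cells were left out.

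The same held for the identity genes that rose. Of 29 tested, 5 rose over all cDC1 (Batf3, Id2, Naaa, Cd24a and Mycl) and none without the endothelial-bearing cells. Of all genes 7.89% were higher over all cDC1 and 5.25% in the other fit. Batf3 stood at 117 CPM over all NCD cDC1 and 147 CPM without those cells, against 231 and 217 CPM in HFD, with differences of 1.01 (adjusted p = 0.0378) and 0.49 (adjusted p = 0.125). Irf8 did not pass in either fit (0.28, adjusted p = 0.245; -0.22, adjusted p = 0.446). The identity genes Htr7, Nfil3 and Ncoa7, of the same 29, fell in both fits. Of all genes 8.43% were lower over all cDC1 and 9.47% in the other fit. In number these named falls are near the share over all cDC1.

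Htr7, a serotonin receptor that marks cDC1, lies on chromosome 19 (GRCm38, chr19:35958734-36057507, minus strand). It stood at 866 CPM in NCD, 104 and 152 CPM in HFD (128 ± 34.2, SD, n = 2) and 159 CPM in JQF. The NCD library was above all others, and the gene fell by 2.68 on the log2 scale (SE 0.29, adjusted p = 0.0376) or by 3.18 without the endothelial-bearing cells (SE 0.30, adjusted p = 0.0104). Nfil3, a transcription factor required for cDC1 development, was at 88.5, 13.3, 17.7 and 26.5 CPM (-2.43 and -2.88). Ncoa7, a coactivator with a role in vesicle acidification, was at 442, 143, 181 and 154 CPM (-1.37 and -1.88), a call lost with the cells in cycle left out (-0.38, adjusted p = 0.227). Without the endothelial-bearing cells Cadm1 (-1.44), Ly75 (-1.61), Btla (-1.01) and Rab7b (-1.30) also fell, whereas over all cDC1 their adjusted p-values were between 0.053 and 0.0883. Cadm1 stood at 2079 CPM in NCD in that fit.

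Several costimulation genes were lower in HFD. Of 28 genes of maturation and costimulation 1 rose and 5 fell over all cDC1, beside 16.3% called over all genes, and 1 rose and 11 fell without the endothelial-bearing cells, with medians of -0.58 and -1.04. Cd86, the ligand of CD28 on T cells, stood at 1241 CPM in NCD, 313 and 453 CPM in HFD and 505 CPM in JQF (-1.61, SE 0.28, adjusted p = 0.0404; -2.15, adjusted p = 0.0167). Cd40, which receives T cell help, was at 139, 36.0, 40.8 and 56.7 CPM (-1.78 and -2.30). The inhibitory ligand gene Pdcd1lg2 was at 40.5, 3.94, 2.51 and 3.34 CPM (-3.57 and -4.12). NCD was the highest library for all 3, but 3 cells held 95.4% of the NCD UMIs of Pdcd1lg2 and 57.4% of those of Cd40. When cells with at least 2 cycle marker UMIs were left out (29 of 77 in NCD), the 5 falls lost their calls, with Cd86 at -1.10 (adjusted p = 0.0662), Cd40 at -0.04 (adjusted p = 0.889) and Pdcd1lg2 at -0.59 (adjusted p = 0.549). That cut was made on unthinned counts and kept endothelial-bearing cells below it, whereas thinning found 9 of 77 NCD cells in cycle. Depth and the mix of the NCD cells changed with the cut, and their part in the lost calls was not tested. The adhesion ligand Icam1 (-0.72 and -0.74) and the transcription factor gene Nfkb1 (-1.03 and -1.47) fell by less. Cd80, Relb, Rel, Tnfaip3, Cd274 and Havcr2 were called lower without the endothelial-bearing cells alone. The gene that rose in both fits was Il4i1, an amino acid oxidase, at 3.00, 26.2, 30.1 and 20.6 CPM (3.30 and 2.73).

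A number of immediate early and heat shock genes were also lower. Of 32 tested, 1 rose and 9 fell over all cDC1 (8.43% of all genes lower), and 1 rose and 17 fell without the endothelial-bearing cells (9.47% of all genes lower), with medians of -0.97 and -1.32. The orphan nuclear receptor Nr4a3 stood at 1559 CPM in NCD, 187 and 236 CPM in HFD (212 ± 34.2, SD, n = 2) and 236 CPM in JQF (-2.80, adjusted p = 0.0376; -3.35, adjusted p = 0.00865). Its relative Nr4a2 was at 696, 71.1, 116 and 135 CPM (-2.81 and -3.33). Egr1 was at 1101 CPM in NCD, 276 and 243 CPM in HFD and 717 CPM in JQF (-2.01 and -2.29), so that JQF lay between the diets. Fos, the best known gene of the list, was at 4930, 1416, 3157 and 4283 CPM and was not called (adjusted p = 0.22). The heat shock gene Hspa1a, whose reads can be shared with its near-identical copy, was at 2233, 1006, 1078 and 681 CPM (-1.02 and -1.41), a call lost with the cells in cycle left out (-0.66, adjusted p = 0.0568). The livers were digested with enzymes before capture, and handling times of the single libraries were not given in the sources used here.

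The other genes with the largest falls in both fits belong to varied functions. Antxr2, the anthrax toxin receptor that binds collagen, lies on chromosome 5 (GRCm38, chr5:97882783-98031043, minus strand) and stood at 1737 CPM in NCD, 109 and 137 CPM in HFD (123 ± 20.0, SD, n = 2) and 336 CPM in JQF (-3.74, adjusted p = 0.0376; -4.23, adjusted p = 0.00732). The cAMP response modulator Crem was at 219, 14.4, 25.1 and 36.0 CPM (-3.39 and -3.94), and the peptide transporter gene Slc15a2 at 124, 9.49, 12.5 and 9.38 CPM (-3.42 and -3.75). Among survival genes Bcl2l1, which blocks apoptosis, was at 133, 23.8, 31.2 and 39.2 CPM (-2.19 and -2.63). The growth factor receptor gene Kit (-0.91 and -1.01; call lost with the cells in cycle left out, adjusted p = 0.0529) and Tgfbr2 (-1.06 and -0.80) fell as well. Of 23 growth factor receptor and survival genes 4 rose and 4 fell over all cDC1, and 1 rose and 7 fell without the endothelial-bearing cells, beside 16.3% and 14.7% of all genes called. By contrast, among genes with at least 50 CPM in NCD, no overlap between groups and at most 50% of the NCD UMIs in 3 cells, the 10 leading falls over all cDC1 were of another kind, with B3galt1, Ppfia2, Mb21d2, Pard3b, Pla2r1, Bmp6, Sntb1, Prex2, Sema6a and Psd3 at 216 to 1672 CPM in the NCD endothelial cells. B3galt1 stood at 237 CPM over all NCD cDC1 and at 2.92 CPM without the endothelial-bearing cells, and of the 10 only Psd3 was still called in that fit (-1.93, adjusted p = 0.0327).

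Chemokine genes moved both ways. The shares of all genes called, 16.3% over all cDC1 and 14.7% in the other fit, stand beside the counts of the chemokine, sensor and clock lists, which are small and in part near or below them. Ccl22, which attracts regulatory T cells, stood at 24.4 CPM in NCD, 117 and 176 CPM in HFD (147 ± 41.4, SD, n = 2) and 35.5 CPM in JQF (2.67, SE 0.38, adjusted p = 0.0378; 2.12, adjusted p = 0.028). In NCD 3 cells held 90.8% of the Ccl22 UMIs, 91.8% of those of Ccl5 and 75.4% of those of S100a4. Ccl5 was at 22.9, 70.1, 86.2 and 51.5 CPM (1.85 and 1.21). Cxcl10, a ligand of Cxcr3, was at 225, 84.8, 83.8 and 119 CPM (-1.34 and -0.90), and stood at 485 CPM in the NCD endothelial cells. The NK receptor chain gene Klrd1 was at 11.6, 68.5, 58.6 and 45.2 CPM (2.52 and 1.98). The migration-linked calcium binding protein gene S100a4 was at 22.9, 133, 106 and 145 CPM and rose by 2.45 and 3.24. Of the 18 genes of the list 4 rose and 2 fell over all cDC1, and 2 rose and 2 fell in the other fit. Of 12 Toll-like receptors and sensors Unc93b1, their chaperone, rose over all cDC1 and none without the endothelial-bearing cells. Of 19 clock and hormone response genes 1 rose and 4 fell over all cDC1, and 2 rose and 2 fell in the other fit. Fkbp5 rose in both fits (1.68 and 2.52), and Bhlhe40 (-1.06 and -1.19) and Txnip (-1.19 and -1.13) fell in both, but the calls on Fkbp5 (adjusted p = 0.0609) and Bhlhe40 (adjusted p = 0.057) were lost with the cells in cycle left out. Arntl and Nr1d2 (-2.16; -0.29, adjusted p = 0.726) fell over all cDC1 alone, and Ddit4 rose in the other fit alone.

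**Figure D5:**
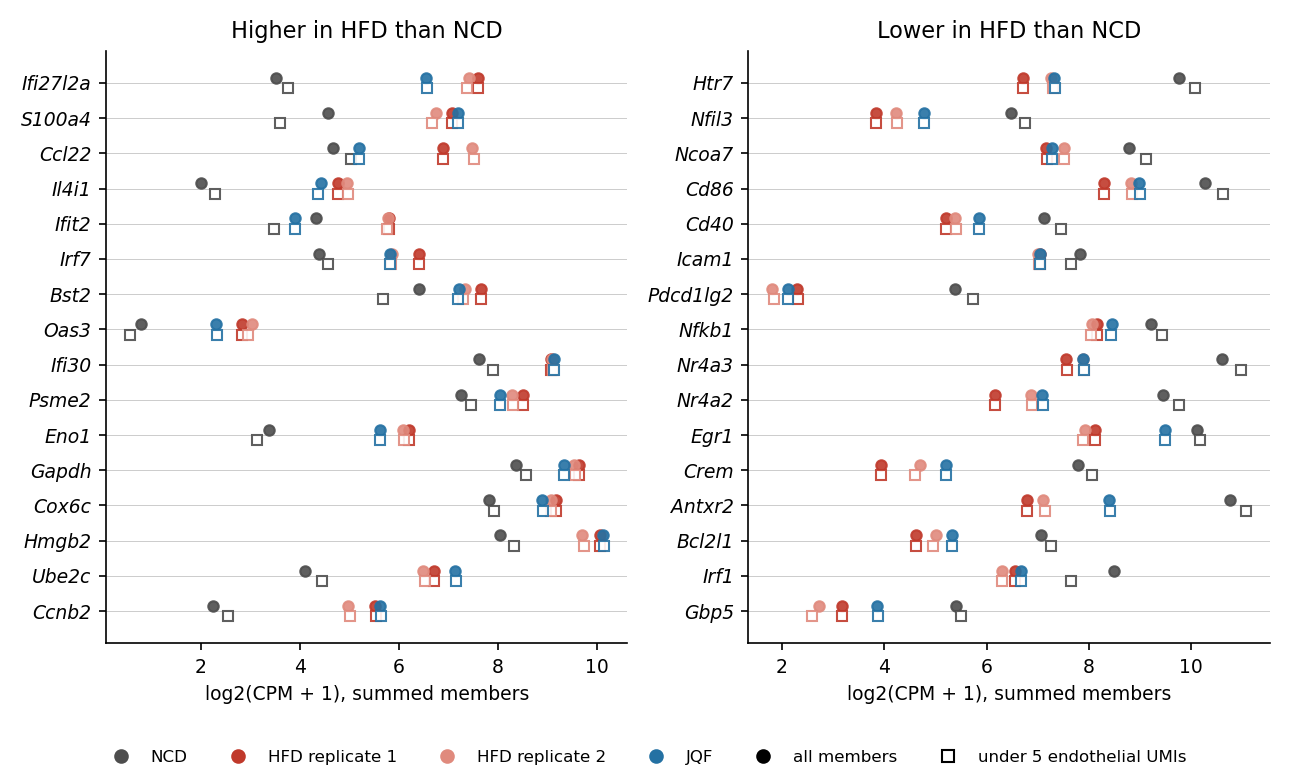
Levels are log2(CPM + 1) on the x axis for genes on the y axis, with 1 marker per library, circles for all cDC1 and squares for cDC1 with fewer than 5 endothelial UMIs; the left panel holds genes higher in HFD and the right panel genes lower in HFD. The NCD marker lies apart from both HFD markers for each gene, for example at 866 CPM against 104 and 152 CPM for Htr7.

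Whether a diet difference was particular to cDC1 was asked by an interaction between subset and group. Of 12933 genes, 113 (0.874%) had a higher signed HFD minus NCD difference in cDC1 than in cDC2 and 131 (1.01%) a lower one, 244 in all (1.89%). With the endothelial-bearing cells left out these were 28 (0.227%) and 43 (0.349%) genes, 0.576% in all. For Htr7, Antxr2, Nr4a3, Ifi27l2a and Ube2c the adjusted p of the interaction was between 0.0542 and 0.669 over all cells, which does not show that the subsets moved alike. In cDC2 Nr4a3 stood at 1465, 113, 99.5 and 180 CPM in NCD, HFD replicates 1 and 2 and JQF, Antxr2 at 517, 76.2, 62.0 and 89.2 CPM and Ifi27l2a at 68.5, 673, 618 and 269 CPM. NCD was thus apart from HFD in cDC2 for these 3 genes too.

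Several of the genes called in both fits differed in how far cDC2 moved. Cd86 stood at 3176 CPM in NCD cDC2 and at 348, 394 and 678 CPM in the cDC2 of HFD and JQF, a larger fall than in cDC1 (interaction 1.42, adjusted p = 0.00457; 1.22, adjusted p = 0.0392). Icam1 was at 518, 108, 106 and 235 CPM in cDC2 against 225, 131, 128 and 131 CPM in cDC1 (1.52 and 1.74). The transcription factor gene Batf was at 217, 59.0, 54.2 and 132 CPM in cDC2, and between 24.4 and 35.7 CPM in cDC1 (2.09 and 2.46). In the other direction, the RNA sensor Ifih1 was at 85.2, 486, 316 and 189 CPM in cDC2 and at 101, 119, 63.4 and 52.3 CPM in cDC1 (-2.38 and -2.55). Ccl4 was at 817, 1689, 1438 and 2217 CPM in cDC2 and at 543, 525, 440 and 871 CPM in cDC1 (-1.07 and -1.11). The fall was larger in cDC1 than in cDC2 for Ncoa7 and Cmtr1, an mRNA cap methyltransferase (interactions of -1.42 and -1.88 over all cells). Ncoa7 stood between 46.1 and 59.7 CPM in every cDC2 sum. The NCD cDC2 sum rested on 42 cells.

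No gene was called between the cDC1 of JQF and of HFD. The smallest adjusted p was 0.565, and 930 genes (7.03%) had an unadjusted p below 0.05. DESeq2 called 9 genes, S100a8 and S100a9 lower and Antxr2, Egr1, Tcof1, Ankdd1a, Lsmem1, Gm26802 and Gm17749 higher in JQF, and leaving out the endothelial-bearing cells again gave 0 calls by edgeR (1314 genes, or 10.4%, at an unadjusted p below 0.05). Some genes stood outside the HFD pair without passing. Ccl22 was at 35.5 CPM in JQF against 117 and 176 CPM in HFD (-1.97, SE 0.34, adjusted p = 0.565). Ifit2 was at 13.9 against 54.7 and 53.8 CPM (-1.88, SE 0.18). Egr1 was at 717 against 276 and 243 CPM (1.55, SE 0.16), and Antxr2 at 336 against 109 and 137 CPM (1.53, SE 0.22). These 4 were named after their values were seen, and their JQF values lay on the NCD side of both HFD values, which both comparisons share. Other genes lay beyond the HFD pair on the far side from NCD, with Hspa1a at 681 CPM in JQF against 1006 and 1078 CPM in HFD, Ube2c at 139 against 103 and 89.1 CPM, Hmgb2 at 1115 against 1063 and 830 CPM and S100a4 at 145 against 133 and 106 CPM. The adjusted p of the first 4 lay between 0.131 and 0.192 with the endothelial-bearing cells left out. S100a9 was at 3.60 CPM in JQF against 67.9 and 29.5 CPM in HFD and 203 CPM in NCD. Htr7, Nr4a3 and Pdcd1lg2, by contrast, stood in JQF close to the HFD values, with differences of 0.39, 0.24 and 0.14 (adjusted p between 0.801 and 0.945).

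Between JQF and NCD no gene was called over all cDC1 (smallest adjusted p = 0.0749, 4018 genes, or 30.4%, at an unadjusted p below 0.05; DESeq2 called 371), and 97 of 12688 (0.765%) were called with the endothelial-bearing cells left out, 25 (0.197%) higher and 72 (0.567%) lower in JQF. S100a4 stood at 11.2 CPM in NCD and 145 CPM in JQF in that fit (3.65, SE 0.31, adjusted p = 0.0439). Ube2c was at 20.9 and 140 CPM (2.70) and Ifi27l2a at 12.6 and 93.2 CPM (2.83). On the lower side Nr4a3 was at 2008 and 238 CPM (-3.12, SE 0.31, adjusted p = 0.0439), Slc15a2 at 139 and 9.47 CPM (-3.92) and Pdcd1lg2, held in NCD mostly by 3 cells, at 52.1 and 3.37 CPM (-3.99). Cd40 (-1.66), Egr3 (-2.19), Hspa1a (-1.95) and Bcl2l1 (-2.00) were lower as well. This comparison shares the NCD library with that of HFD and NCD, so the 2 are not independent.

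The interaction for JQF against HFD was called in 10 genes (0.0773%) with a higher and 29 (0.224%) with a lower signed difference in cDC1 than in cDC2. These were 39 in all (0.302%), while 8.2% had an unadjusted p below 0.05. With the endothelial-bearing cells left out 2 genes (0.0162%) were called, both with a lower signed difference. They included the immunoglobulin gene Igkc, a transcript of plasma cells, at 3.75, 4.93, 23 and 36.0 CPM in cDC1 and 1.85, 6.35, 24.2 and 631 CPM in cDC2 (-3.99, adjusted p = 0.00414). The difference came from the JQF cDC2 sum.

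The ligands that act on cDC1 were read in the cells that secrete them, with no test. Xcl1, the ligand of Xcr1, was at 149, 182, 153 and 436 CPM in T cells of NCD, HFD replicates 1 and 2 and JQF, and at 812, 1200, 518 and 1038 CPM in NK cells and innate lymphoid cells. JQF was thus the highest library in T cells but lay within the HFD range in NK cells and innate lymphoid cells. The growth factor gene Flt3l was at 15.8, 31.1, 23 and 20.4 CPM in T cells and at 12.6, 25.4, 9.91 and 15.4 CPM in NK cells and innate lymphoid cells, so NCD was lowest in T cells but not in the latter.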

How the data were processed

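Single-cell RNA sequencing (10x Genomics 3′ v3.1) was measured in 4 mouse liver libraries. The deposited values are raw UMI counts per gene and barcode, which the authors made with Cell Ranger against mm10. The methods name Cell Ranger 6.0.1 and Seurat 4.0.3, whereas the file headers name other Cell Ranger versions, so whether intronic reads were counted was not settled, and overlapping genes may share reads. The labels' cell type field does not describe the mixture found.

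Kept barcodes of the filtered matrices had 500 genes or more and no more than 20% mitochondrial UMIs. The members, gene lists and tests were chosen with earlier results of these data known. Cells were not replicates: raw counts of the cDC1 were summed per library and fitted by group in edgeR 4.0.16 (R 4.3.3; filterByExpr, TMM, quasi-likelihood F test), with Benjamini-Hochberg adjustment over all genes at 0.05. There was 1 residual degree of freedom. cDC1 against cDC2, and the interaction of subset and group, were fitted on 8 sums. Cells per class were tested with the kept cells as offset. SE is the log2 difference divided by the square root of F. DESeq2 1.42.0 was an alternative. Intervals are exact Clopper-Pearson, at 95%.

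Genes were named as list members, as the 10 of largest change in each direction among called genes with a mean of at least 50 CPM in the higher group, no overlap between groups and at most 50% of that group's UMIs in 3 cells, or as the 5 largest interactions in each direction. Other genes were named after their values were seen. Scrublet (scanpy 1.11.5) called 0 to 2.80% of barcodes at its own threshold, so the highest scores at 0.8% per 1000 barcodes were removed as an alternative only. Coordinates are of GRCm38 (GENCODE M21, 32158 of 32285 identifiers matched), and promoters of RefSeq GRCm38.p6. The gene test was also run on simulated counts with known changes. These had the same spread in every library, smaller than the fitted one, and no endothelial-bearing cells. The run therefore cannot check the assumption that NCD varied as HFD did. The p-values of the group comparisons and of the interaction rest on the spread of the HFD pair, with 1 residual degree of freedom per gene. edgeR moderated the spread of each gene toward a trend over genes. The prior degrees of freedom of that trend were 3.15 in the fit over all cDC1. No spread was measured within NCD or JQF. The p-values of cDC1 against cDC2 rest on how that difference varied over the libraries.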

Additional observations from a re-analysis of the deposited data

Results flagged for a closer look

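The following 20 interactions, the 5 of largest size in each direction per comparison, are given because the change differed between cDC1 and cDC2 by a test of the difference itself (edgeR quasi-likelihood test, adjusted p below 0.05). Differences are signed, so a lower one need not be a smaller change, as with Sntb1, which was among the leading falls in cDC1. For HFD against NCD the difference was higher in cDC1 for P3h2 (3.69), Itga8 (3.43), Plpp1 (3.38), Arl5c (2.52) and Alpk2 (2.50). It was lower in cDC1 for Rtp4 (-4.25), Gda (-3.97), Dab2 (-3.80), Sntb1 (-3.39) and Hpgd (-3.38). With the endothelial-bearing cells left out, only Arl5c of these 10 was still called (2.49, adjusted p = 0.0233). The P3h2 interaction turned its direction in that fit. Arl5c stood at 23.6, 32.4, 57.2 and 36.7 CPM in the cDC1 of NCD, HFD replicates 1 and 2 and JQF, and at 204, 55.6, 81.6 and 67.3 CPM in cDC2.

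For JQF against HFD the signed difference was higher in cDC1 for the lectin Clec10a (3.25), the division genes Ect2 (1.82) and Knl1 (1.69), Cxcl10 (1.81) and Ly6a (1.55). It was lower for Igkc (-4.01), F13a1 (-3.16), Cxcl2 (-1.50), Cd24a (-1.43) and Ighm (-1.38). Of these 10, Igkc alone was still called with the endothelial-bearing cells left out (-3.99, adjusted p = 0.00414). Clec10a rested on 32 UMIs in the JQF cDC1 and at most 3 in each HFD library.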

How the results depend on the processing

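Counts of called genes moved with several choices, and the cause was not tested. For HFD against NCD, 812 genes were called by DESeq2 (242 higher, 570 lower), 0 after doublet removal, 1011 with the rule applied after thinning (258 higher, 753 lower) and 1033 with the cDC1 thinned (388 higher, 645 lower). Library totals in place of TMM gave 1007 higher and 1676 lower genes, 37.5% higher against 48.4%. For JQF against HFD, DESeq2 called 9 genes and thinning 1. For JQF against NCD, library totals gave 98, DESeq2 371, at least 4 UMIs of Xcr1 and Clec9a 349, thinning 551 and the removal of endothelial-bearing cells 97. Between cDC1 and cDC2, thinning gave 1975, the fit without the library block 1126, and leaving out 1 library at a time 1946 (without HFD replicate 2) to 3627 (without NCD). The HFD interaction was called in 147 genes with RLE size factors, 540 without the gene filter, 94 after thinning and 71 without endothelial-bearing cells, and the JQF interaction in 14, 161, 22 and 2.

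The share difference between HFD and NCD was -0.019 within dendritic cells and 0.17 there without the endothelial-bearing cells, and that between JQF and HFD ran from -0.55 to 0.045 with 1 HFD library left out. Shares in cycle were 37.7%, 32.5%, 29.8% and 37.2% unthinned, and 20.8%, 27.8%, 23.4% and 30.3% with 1 cycle UMI as the minimum. Of 3334 alternative values for 292 gene results, 3038 had a test, of which 2427 kept direction and call, 608 kept direction but lost the call and 3 reversed. The other 296, with 1 HFD library left out, had no test and kept their direction, and 16 of them moved by 1 or more on the log2 scale. With cells in cycle by unthinned counts left out, 29 diet calls on named genes were lost and 71 kept. The 3 that reversed were Bmp6 (0.71) and Sema6a (1.35) for HFD against NCD with the rule after thinning, and the P3h2 interaction (-5.27) without endothelial-bearing cells. No paired analysis was possible because the groups share fewer than 2 replicate numbers. Leaving out 1 HFD library left no residual degree of freedom for the diet comparisons. The 77 NCD cells that met the rule, 21 of them with at least 5 endothelial UMIs, limit every diet difference.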
